A study of Canis lupus familiaris with 8 samples.

Results

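The miRNAs miR-10a, miR-196a and miR-196b, which are encoded inside the Hox gene clusters, were followed through vesicles (exosomes) shed by dog mammary cells. They were taken by name from a table of 452 mature canine miRNAs (cfa-miR-10a, cfa-miR-196a and cfa-miR-196b), so 3 of 452 are described. They were chosen by name with their signals in this same comparison already known, miR-10a and miR-196b as lower and miR-196a as higher on average in tumour vesicles, so these differences are given as a description, with no test. The study used small RNA sequencing to ask which vesicle miRNAs differ between malignant and normal mammary cells. The 5 libraries of canine mammary tumour lines (CMT) came from CMT-12, CMT-119, CMT-27, CMT-28 and CMT-47, each a separate line of mammary carcinoma cells and each with 1 library. The 3 libraries of normal canine mammary epithelial cells (CMEC) came from CMEC1, CMEC2 and CMEC3, labelled as biological replicates without saying whether they came from separate dogs. All cells were grown in the same serum-free medium without any treatment named, and the conditioned medium of 48 h was taken on day 3.

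miRNAs are short RNAs that pair with messenger RNAs through a short seed near their 5′ end and lower the output of those messages. Hox genes are transcription factors that give cells their position along the body axis, and several miRNA genes lie between them. The miR-10 genes and the miR-196 genes were shown in mouse, human and fish cells to act back on Hox messages, with HOXB8 a directly cleaved target of miR-196 in mouse. In human breast cancer, miR-10b is described as a promoter of invasion, and miR-196a is described as raised in several carcinomas. Whether these roles hold in dog mammary cells is not addressed by vesicle levels.

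In canFam3, as the table gives positions, the miR-10a locus spans 24842212 to 24842233 on chromosome 9. miR-196a has 2 loci with the same mature name: one on chromosome 9 from 24895721 to 24895742, 53509 bases from miR-10a, and one on chromosome 27 from 1270755 to 1270776. miR-196b lies on chromosome 14 from 40344040 to 40344062, and all of these are on the minus strand. All 6 loci of the Hox-cluster miRNAs in the table, including miR-10b and miR-615, matched a RefSeq gene by gene ID (assembly UU_Cfam_GSD_1.0, used for names and neighbours only). There, the miR-10a gene sits between HOXB4 and HOXB5 within the annotated span of HOXB3. The chromosome 9 copy of miR-196a sits between HOXB9 and HOXB13, and miR-196b between HOXA9 and HOXA10. The chromosome 27 copy of miR-196a sits between HOXC10 and the annotated span of HOXC4, a span that also holds miR-615. The exon or intron structure around these loci was not analysed here.

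The deposited values were a linear normalised signal with a floor of 1 in every library. Above the floor, values fell on whole multiples of a library's own step (99.0% to 100% of them, within 0.05 steps), and a step is read here as 1 sequenced read. The libraries held 81138 (CMT-12) to 1405893 (CMT-27) such steps in the CMT lines and 85906 (CMEC2) to 404290 (CMEC1) in the CMEC samples. These sums take 1 locus per miRNA. A step was worth 0.386 to 2.32 signal units in CMT and 1.09 to 2.83 in CMEC, so low values rest on fewer reads in CMT-12 and CMEC2 than in the rest. Of the 7 epithelial marker miRNAs, 6 were above the floor in at least 1 library, none in all 8, and miR-141 was at the floor throughout. Their summed signal was 6.24 to 16308 in the CMT lines, where only CMT-27 and CMT-12 exceeded 100, and 12.0 to 48.2 in the CMEC samples. The defining epithelial miRNAs were thus near the floor in the samples labelled as epithelial and in 3 of the tumour lines.

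miR-10a was the most abundant of the 3 miRNAs in normal vesicles and was lower in 4 of the 5 tumour lines than in any CMEC sample. Its normalised signal was 132 in CMT-12, 16.1 in CMT-119, 2.08 in CMT-27, 12.7 in CMT-28 and 191.5 in CMT-47, against 163 in CMEC1, 1700 in CMEC2 and 4176 in CMEC3. The groups overlapped, because CMT-47 lay above CMEC1, while CMEC2 and CMEC3 lay above every CMT line. On the log2(value + 1) scale miR-10a averaged 4.83 ± 2.48 in the CMT lines and 10.04 ± 2.41 in the CMEC samples (SD, n = 5 and 3). The difference of -5.21 ± 1.47 (SE) was the lowest of the 193 miRNAs tested. The median difference of those 193 was 0.75, so miR-10a lay at -5.96 relative to it.

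The place of miR-10a within each library shows a similar spread without any scaling between libraries. Places far down depend on how many miRNAs were above the floor. That number was 168 in CMT-12, 161 in CMT-119, 209 in CMT-27, 152 in CMT-28 and 174 in CMT-47. In CMEC1, CMEC2 and CMEC3 it was 199, 141 and 152. Counted from the most abundant, miR-10a ranked 64 in CMT-12, 95 in CMT-119, 193 in CMT-27, 98 in CMT-28 and 58 in CMT-47. It ranked 59 in CMEC1, 13 in CMEC2 and 10 in CMEC3. CMT-12, CMT-47 and CMEC1 therefore carried miR-10a at nearly the same rank. In CMT-27 the signal rested on 3 steps, whereas in CMEC3 it rested on 3012. Shares are given in ppm of the listed signal, summed over the locus of highest mean signal of each miRNA. By share, miR-10a made up 2.13 to 703 ppm in the CMT lines and 371, 6984 and 8691 ppm in CMEC1, CMEC2 and CMEC3. Over the 8 libraries its log2 SD was 3.53, with 3 of the other tested miRNAs more variable, against a median SD of 1.47.

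**Figure D1:**
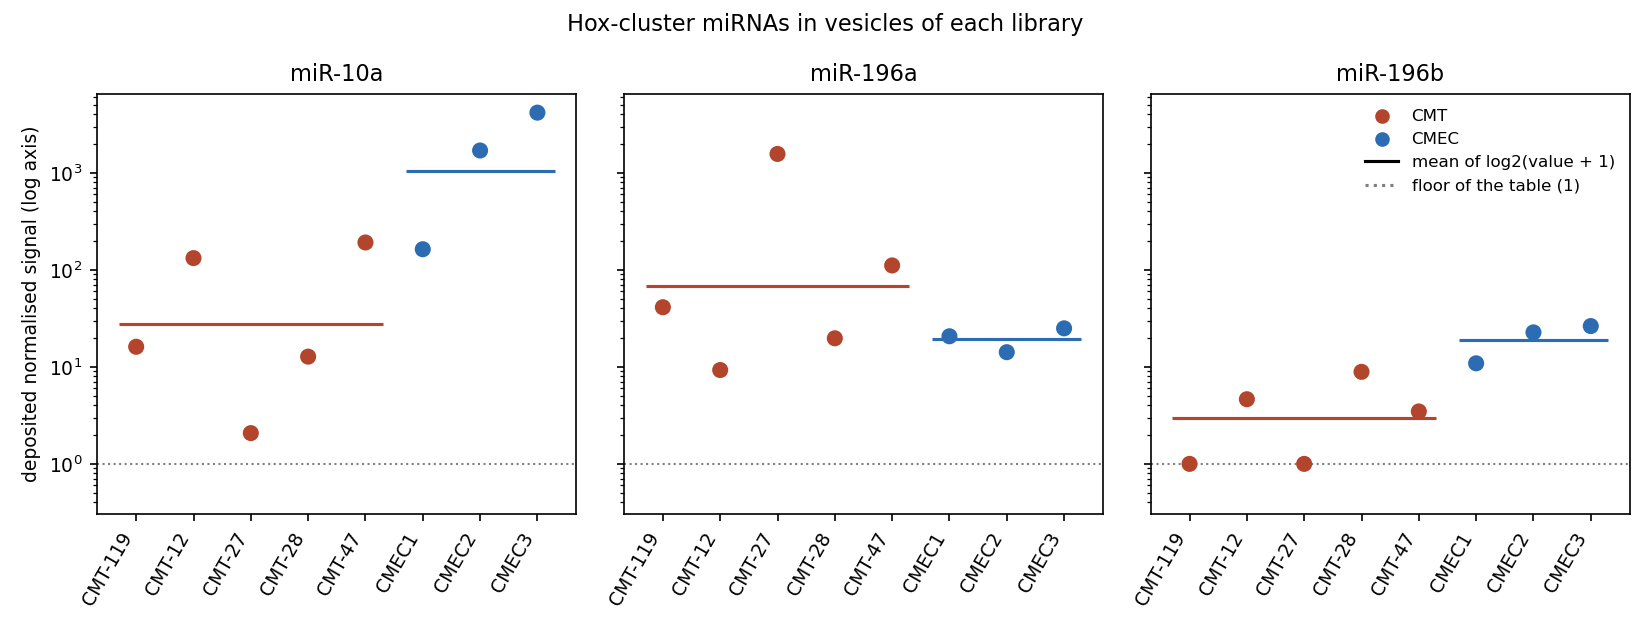
Deposited normalised signal (log axis) of miR-10a, miR-196a and miR-196b in each of the 5 CMT and 3 CMEC libraries; points are libraries, lines are group means of log2(value + 1) turned back to signal, and the dotted line is the floor of 1. miR-10a runs from 2.08 in CMT-27 to 4176 in CMEC3, miR-196a stands out in CMT-27 at 1566, and miR-196b stays under 30 throughout.

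The mesenchymal marker list (fibroblast and smooth muscle) did not follow miR-10a in every library. All 4 of its markers were above the floor in at least 1 library and 2 of them in all 8. They summed to 480 in CMT-12, 29037 in CMT-119, 147 in CMT-27, 14375 in CMT-28 and 100904 in CMT-47, against 7409 in CMEC1, 45201 in CMEC2 and 62635 in CMEC3. CMT-119 and CMT-28, with a miR-10a signal of 16.1 and 12.7, thus had higher sums than CMEC1, where miR-10a was 163, and CMT-47 had the highest sum of all. Most of the sum in every library was miR-143, while miR-145 was 180 in CMT-28 and 190 in CMT-47, against 19.4 in CMEC3. The other 2 markers, miR-199 and miR-214, were lower in the CMT lines than in CMEC2 and CMEC3, as miR-10a was, except for miR-199 in CMT-28. miR-199 was 1616 in CMT-28 and 4.48 to 18.5 in the remaining lines, against 129, 1623 and 1097 in CMEC1, CMEC2 and CMEC3. miR-214 was 1 to 5.02 in CMT, against 1, 65.2 and 51.3. The log2 differences were -2.52 for miR-143, -1.16 for miR-145, -4.19 for miR-199 and -2.79 for miR-214.

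The 3 muscle markers in the table, of 4 listed, summed to 25.5 to 352 in CMT and to 190 in CMEC1, 3635 in CMEC2 and 1106 in CMEC3. The 2 neural markers summed to 121 to 5597 in CMT and 2.83 to 260 in CMEC, and the liver marker miR-122 had 3.09 to 18357 in CMT and 5.67 to 161 in CMEC. The blood markers, of which miR-223 was at the floor throughout and 4 of 5 were above it somewhere, summed to 10.4 to 218 in CMT and 2.18 to 73.7 in CMEC. The endothelial marker miR-126 had at most 23.5 in CMT and 2.18 in CMEC. The part of these cell types in the level of miR-10a was not tested, and fewer cells of a type and less RNA per cell cannot be told apart in such libraries.

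miR-196b, the HOXA-cluster copy of the miR-196 family, was scarce everywhere and lower in the tumour lines. Its signal was 4.64 in CMT-12, 8.89 in CMT-28 and 3.47 in CMT-47 and at the floor of 1 in CMT-27 and CMT-119, against 10.9 in CMEC1, 22.7 in CMEC2 and 26.3 in CMEC3. The groups did not overlap, though the gap between CMT-28 and CMEC1 was small. Such separation with CMT lower was seen for 3 of the 193 miRNAs (1.55%), and separation with CMT higher, which none of the 3 Hox-cluster miRNAs showed, for 15 (7.77%). The values rest on 0 to 23 steps in CMT and on 8 to 19 steps in CMEC.

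Of the 4 scales compared, the separation of miR-196b held on the deposited one only. As a share of the listed signal it was 24.6, 0, 0, 27.2 and 4.79 ppm in CMT-12, CMT-119, CMT-27, CMT-28 and CMT-47, against 24.7, 93.1 and 54.8 ppm in CMEC1, CMEC2 and CMEC3, so CMT-28 lay above CMEC1. The groups also overlapped after median centring and after quantile normalisation. Among all tested miRNAs, 3.11%, 3.11% and 3.63% were apart with CMT lower on these scales (share, median centring and quantile normalisation). The log2 mean of miR-196b was 1.99 ± 1.00 in the CMT lines and 4.30 ± 0.64 in the CMEC samples (SD, n = 5 and 3). The difference of -2.31 ± 0.98 (SE) lay -3.06 from the median of the 193 and was the 8th lowest.

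miR-196a, of the HOXB and HOXC clusters, did not follow miR-10a and miR-196b and was by far highest in a single tumour line. At its chromosome 27 locus, the one with the higher mean, the signal was 9.27 in CMT-12, 41.2 in CMT-119, 1566 in CMT-27, 19.7 in CMT-28 and 111 in CMT-47, against 20.7 in CMEC1, 14.2 in CMEC2 and 25.0 in CMEC3. CMT-27, CMT-47 and CMT-119 lay above all CMEC samples, CMT-28 lay among them and CMT-12 below them. The 3 CMEC samples were close together, with a log2 SD of 0.39 around a mean of 4.35, whereas the 5 CMT lines averaged 6.11 ± 2.82 (SD).

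The log2 difference of miR-196a was 1.76 ± 1.51 (SE), or 1.01 above the median of the 193. Without CMT-27 the difference was 0.63, which is 0.21 above the median of that fit. As a share of the listed signal miR-196a was 1610 ppm in CMT-27 and 49.3 to 153 ppm among the remaining lines, against 47.0 to 58.2 ppm in CMEC. It ranked 122 in CMT-12, 78 in CMT-119, 46 in CMT-27, 92 in CMT-28 and 68 in CMT-47, against 101, 90 and 83 in CMEC1, CMEC2 and CMEC3. The CMT-12 value rests on 4 steps and the CMEC2 value on 5.

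**Figure D2:**
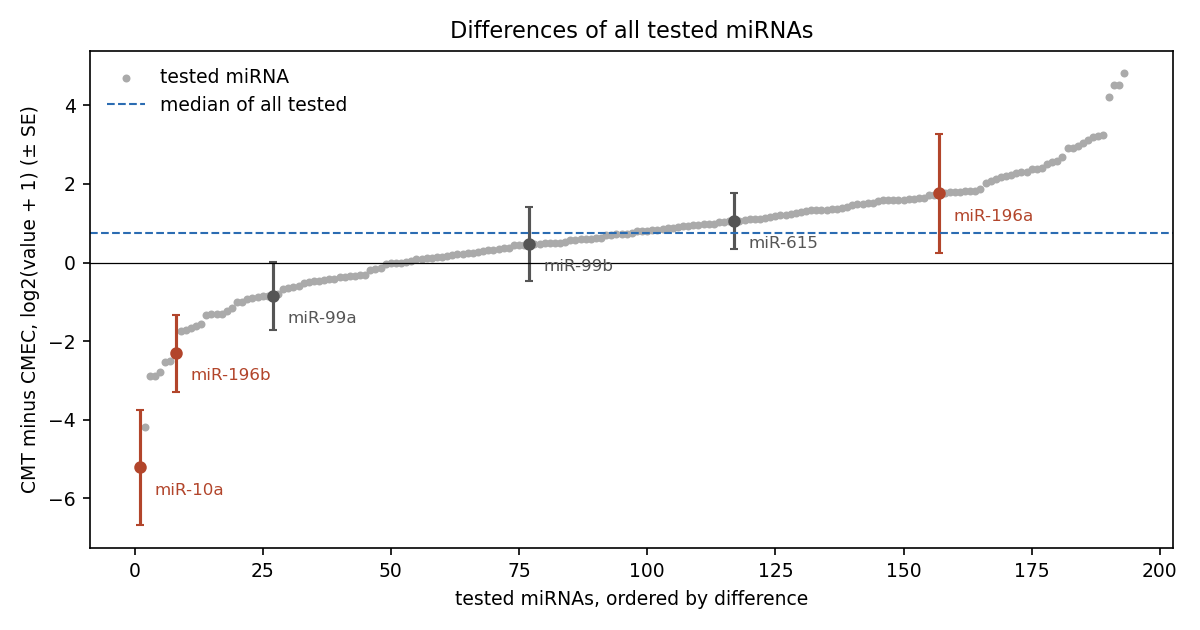
Difference CMT minus CMEC on the log2(value + 1) scale for the 193 tested miRNAs, ordered from lowest to highest (grey), with the Hox-cluster miRNAs miR-10a, miR-196a and miR-196b in red, miR-615, miR-99a and miR-99b in dark grey, error bars of 1 SE and the median of all tested as a dashed line. miR-10a is the lowest at -5.21, miR-196b lies at -2.31 and miR-196a at 1.76.

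The balance among the 3 miRNAs differed from line to line. In CMT-27 miR-196a exceeded miR-10a, with a log2 ratio of miR-10a to miR-196a of -8.99, and it also did so in CMT-28 (-0.59) and CMT-119 (-1.30). The ratio was 3.70 in CMT-12 and 0.78 in CMT-47, against 2.92 in CMEC1, 6.81 in CMEC2 and 7.33 in CMEC3. CMT-12 thus resembled CMEC1 in this ratio, and the groups overlapped. The log2 ratio of miR-196a to miR-196b, the paired copies of a family, was 0.87 to 9.61 in CMT and -0.64 to 0.87 in CMEC. Its lowest CMT value, in CMT-12, lay just below its highest CMEC value, in CMEC1. These ratios are taken within a library, so its scaling enters only through the floor and the added 1.

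The balance between the loci of miR-196a is given as a description, with no test, since it was picked after its values were seen and comes from the same libraries that chose the miRNA. Of the summed steps at both loci, the chromosome 27 (HOXC) locus held 57.1% in CMT-12, 66.7% in CMT-119, 67.7% in CMT-27, 62.2% in CMT-28 and 73.4% in CMT-47, against 79.2% in CMEC1, 83.3% in CMEC2 and 85.7% in CMEC3. The groups did not overlap. The mean was 65.4% ± 6.11 in the CMT lines and 82.7% ± 3.31 in the CMEC samples (SD, n = 5 and 3), a difference of -17.3 percentage points. Of the 23 miRNAs with 2 or more loci that could be compared, miR-196a was the 1 whose leading locus had a lower share in every CMT line than in any CMEC sample (4.35%), and 1 other showed the opposite (4.35%).

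The depth behind these shares was uneven. The loci together held 7 steps in CMT-12, 69 in CMT-119, 3343 in CMT-27, 82 in CMT-28 and 218 in CMT-47, against 24 in CMEC1, 6 in CMEC2 and 21 in CMEC3. If each step is 1 read counted at 1 locus only, the exact Clopper-Pearson 95% interval was 66.1% to 69.3% in CMT-27. The CMEC intervals were 57.8% to 92.9% in CMEC1, 35.9% to 99.6% in CMEC2 and 63.7% to 97.0% in CMEC3. Each CMEC interval reached into the range of the CMT shares, and intervals cover counting error only. Of 24 miRNAs with several loci and a mean signal over 10 at the leading locus, 14 had a leading locus within 1.1 times the next one and 5, miR-196a among them, over 1.5 times. Both loci of miR-196a carry the same mature name, and how reads were assigned between them is not given in the sources used here. For miR-1 and miR-29c the 2 loci had the same mean signal (329 and 12.6). Where a read counts at both loci, the steps are not separate reads. The shares and intervals would then not measure the output of each locus, which was not tested.

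**Figure D3:**
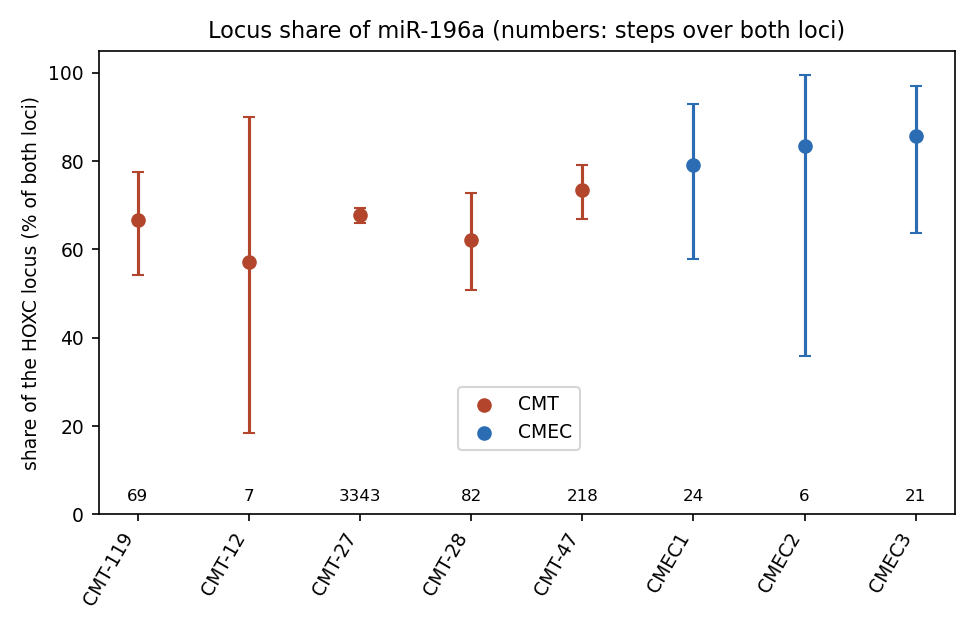
Share of the chromosome 27 (HOXC) locus in the steps summed over both miR-196a loci, in percent, for each CMT and CMEC library; bars are exact 95% binomial intervals and the numbers above the axis are the steps over both loci. The 5 CMT lines sit between 57.1% and 73.4% and the 3 CMEC samples between 79.2% and 85.7%, with wide intervals where steps are few.

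The remaining Hox-cluster miRNAs, miR-10b of the HOXD cluster and miR-615 of the HOXC cluster, were close to the floor. miR-10b was above it only in CMT-47, at 1.39, and in CMEC3, at 5.55, which is 2 and 4 steps, so it was not tested. The log2 ratio of miR-10a to miR-10b, with miR-10b at the floor in 6 libraries, averaged 3.78 ± 2.41 in the CMT lines and 8.47 ± 1.84 in the CMEC samples (SD, n = 5 and 3), a difference of -4.69. It ran from 0.62 to 6.33 in CMT and from 6.36 to 9.73 in CMEC, and with miR-10b at the floor it follows miR-10a almost alone. miR-615 was 4.64 in CMT-12, 4.48 in CMT-119, 8.30 in CMT-27, 1.16 in CMT-28 and 4.86 in CMT-47, against 2.18 in CMEC1, 1 in CMEC2 and 1.39 in CMEC3. Its log2 difference was 1.06 ± 0.71 (SE; limma adjusted p = 0.537), and no library held more than 12 steps.

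The sequence relatives of miR-10a were abundant and varied less. miR-99a, of the wider miR-10 family, had 4514 to 22442 in CMT and 11384 to 32409 in CMEC, with a log2 difference of -0.84 ± 0.87 (SE; limma adjusted p = 0.717). The groups overlapped on this scale and after median centring. As a share of the listed signal, miR-99a was 13813 to 41103 ppm in CMT and 46580 to 67452 ppm in CMEC, so the groups were apart with CMT lower, as they also were after quantile normalisation. miR-99b had 905 to 9376 in CMT and 1059.6 to 2741 in CMEC, with a log2 difference of 0.47 ± 0.95 (SE; limma adjusted p = 0.802), and the sign of this difference was negative after median centring and quantile normalisation. Their log2 SD over the 8 libraries was 0.90 and 1.07. miR-100, the other relative on the list, was not among the miRNAs given in the data and so has no value here. The log2 ratio of miR-10a to miR-99a was -5.86 in CMT-12, -9.76 in CMT-119, -12.83 in CMT-27, -8.36 in CMT-28 and -6.14 in CMT-47, against -6.96 in CMEC1, -2.74 in CMEC2 and -2.96 in CMEC3. CMT-12 and CMT-47 lay above CMEC1 in this ratio and below CMEC2 and CMEC3.

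The let-7 list, of let-7 members and miR-98, whose seed overlaps that of miR-196, had 7 tested of 9 listed, 8 of them in the table. It left out let-7d, which was tested as well and had a log2 difference of 0.17 ± 1.14 (SE; limma adjusted p = 0.944). limma called 0 of these 7 and 0 of all 193 miRNAs tested (0%) at an adjusted p under 0.05, with 21 of the 193 at an unadjusted p under 0.05 (10.9%). Without CMEC1, 6 miRNAs were called. The median difference of the let-7 list was -0.03, against 0.75 for all tested miRNAs, with the lowest at let-7c (-1.72 ± 1.15, SE; limma adjusted p = 0.537) and the highest at let-7g (0.70 ± 0.89, SE; limma adjusted p = 0.769).

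The profiles most like each miRNA were found from the root mean square difference of log2 values over the 8 libraries, after the mean of each miRNA was taken off. For miR-10a the nearest were miR-214 (2.22), a mesenchymal marker, then miR-196b (2.30), miR-383 (2.36), miR-504 (2.38) and miR-148a (2.56), against a median of 4.03 over all tested miRNAs. Each of these 5 was highest in CMEC2 or CMEC3. Even the nearest was far in absolute terms, since the profile of miR-10a lies 3.30 from its own mean. In the order of likeness to miR-196b, miR-10a came only in place 95, at 2.30 against a median of 2.31.

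For miR-196b the nearest were miR-504 (0.86), miR-676 (0.88), miR-133a and miR-133c (1.14 each, with identical values) and miR-34a (1.18), against a median of 2.31. All 5 had a signal of 27.7 or less in every library, so these likenesses rest on few reads. For miR-196a the nearest were miR-31 (0.91), miR-335 (0.93), miR-23b (0.94), miR-628 (1.12) and miR-134 (1.14), against a median of 1.86. All of them were highest in CMT-27, among them miR-23b at 17542 in CMT-27 and 475 to 2282 among the remaining lines, against 652 to 1652 in CMEC. miR-31 was at 348 in CMT-27 and 2.32 to 10.7 among the remaining lines, against 1 to 1.09 in CMEC. miR-10a was the least like miR-196a of all 192 other tested miRNAs, at 4.89. In the order of likeness to miR-10a, miR-196a came in place 170. This distance grows with the spread of a miRNA, and miR-10a had a large one (log2 SD 3.53). The miR-196a profile used here is that of the chromosome 27 locus, not of the copy near miR-10a on chromosome 9.

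**Figure D4:**
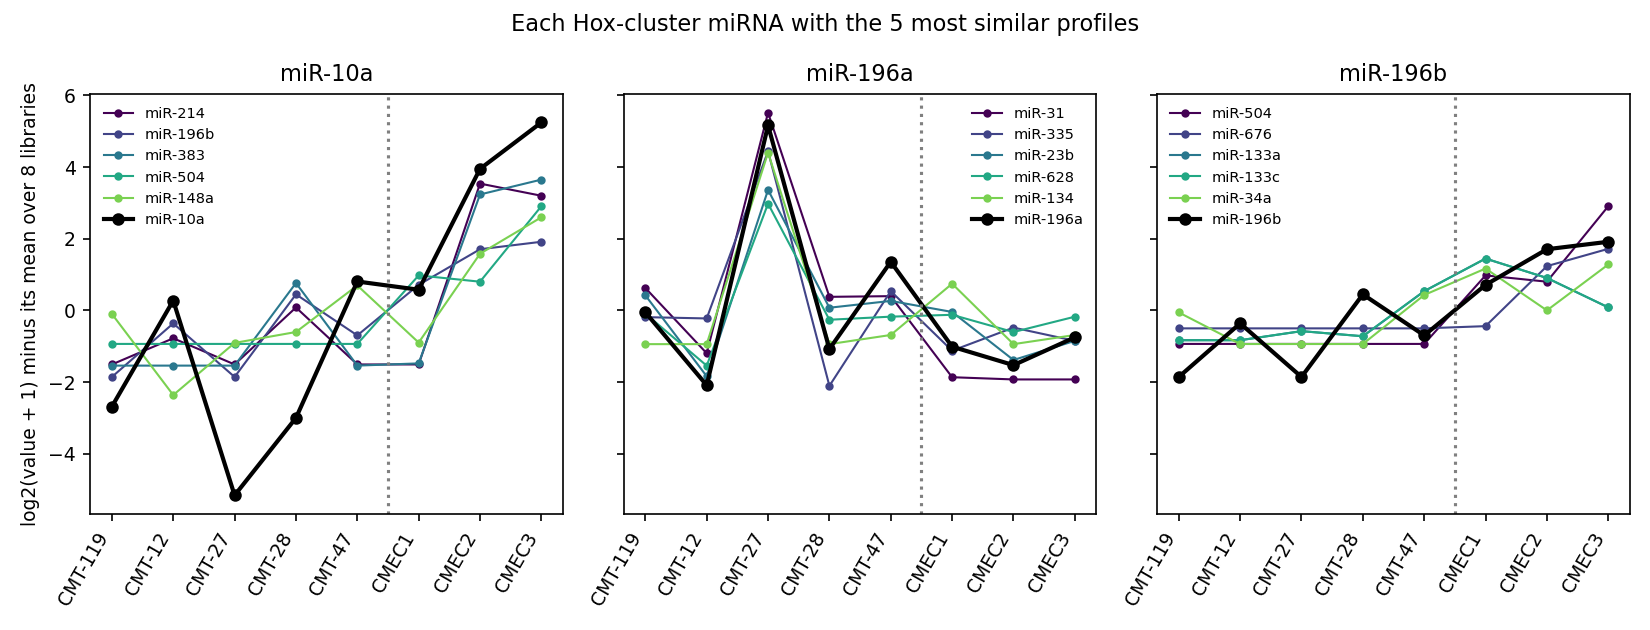
Profiles of miR-10a, miR-196a and miR-196b (black) with the 5 most similar tested miRNAs (coloured), as log2(value + 1) minus the mean of each miRNA over the 8 libraries; lines join the values of a miRNA and the libraries have no order within a group. The miR-10a panel is highest in CMEC2 and CMEC3, and the miR-196a panel is highest in CMT-27.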

How the data were processed

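Per the labels' protocols, vesicle RNA came from 5 mL of medium freed of cells, each small RNA library took 500 ng and reads were single, of 50 bases. The authors deposited 1 normalised signal per miRNA locus and library for 511 loci; per the submitters' processing notes the build was canFam3. Aligner, counting program and the way of normalising: not given in the sources used here. Depth was taken from the steps in the values (81138 to 1405893 per library, over the locus of highest mean signal of each miRNA only). This depth is a reading of the values and not stated by a label.

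The members and lists were chosen with earlier results of these data known. Of loci with a shared mature name, that of the highest mean signal stood for the miRNA (45 miRNAs, 59 loci dropped). Groups came from the labels. miRNAs above the floor of 1 in at least 3 of 8 libraries, 193 in all, were fitted as log2(value + 1) with limma 3.58.1 (eBayes with a trend, R 4.3.3), CMT minus CMEC, with Benjamini-Hochberg adjustment over all of them and a threshold of 0.05. The added 1 makes differences of low miRNAs smaller than their true size. The fit was tested on simulated Gaussian noise without a floor, which does not cover miRNAs near the floor. The p-values reflect only how far these samples spread. Named were the 3 members, the listed Hox-cluster miRNAs, miR-10 relatives and let-7 members, and the 5 nearest profiles per member. Alternatives covered the pseudocount, filter, scaling, trend, handling of loci and each library left out. No miRNA sequences were used here.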

Additional observations from a re-analysis of the deposited data

Results flagged for a closer look

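A library far from the rest of its group was looked for among the 5 tumour lines in 15 results, and 2 came up. The rule's chance rate of about 1 in 20 is for separate results without ties. The 15 results share miRNAs and some hold values tied at the floor, so the count shows no excess over chance. Groups of 3, such as the CMEC samples, were not screened. miR-196a stood at 1610 ppm of the listed signal in CMT-27 and at 153 ppm in the next line, CMT-47. Its log2 value was screened as well and did not come up. miR-10b had a log2 value of 1.26 in CMT-47, which is 2 steps, and was at the floor (1.00 on this scale) in the remaining lines. With those lines tied, any value above the floor would have come up.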

How the results depend on the processing

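Over 10 alternatives with all libraries, the difference of miR-10a ran from -6.05 to -4.55 and that of miR-196a from 0.87 to 2.09; with each library left out they ran from -6.55 to -4.22 and from 0.63 to 2.45. The difference of miR-196b was -1.11 with a pseudocount of 10, -3.28 as share of the library sum and -3.78 as share without miR-21 and miR-148a (chosen after seeing the data), and -2.68 to -2.06 with each library left out; it kept its sign in these. miR-99b was at -0.36 after median centring, -0.48 after quantile normalisation and -0.058 without CMT-27 to 0.88 without CMEC3. The count of called miRNAs was 0 under these 10 alternatives and 0 to 6 with each library left out, the 6 without CMEC1; the cause was not tested. The difference in the locus share of miR-196a ran from -19.3 to -15.2 points with each library left out and was -14.9 in the 6 libraries with at least 10 steps. With a filter on all 8 libraries, miR-196b and miR-615 had no value. The count-model alternatives were not run, because the deposited values are a normalised signal with a floor of 1. That a step is a read is a reading of the values, not stated by a label. No paired analysis was possible because the labels number only the CMEC samples and tie no CMT line to any of them. Depth limits miR-196b, miR-10b and miR-615, which rest on at most 23 steps in any library.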
